A study of Mus musculus with 10 samples.

Results

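Collagens are the main proteins of the extracellular matrix, and 41 collagen genes were followed here through mouse embryonic stem (ES) cell lines that overexpress PRDM14 or lack DNA methyltransferases. Every gene whose name on the arrays has the form Col, number, a, number, such as Col1a1, was taken, which gave 41 of the 36282 genes named on the arrays. They were covered by 63 probes, and for each gene the probe with the highest mean signal over the 10 arrays was kept. One name that only begins with this pattern, Col4a3bp, a ceramide transport protein gene, was left out.

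A collagen molecule is a helix of alpha chains, each made from its own gene. The chains are hydroxylated on proline and lysine, folded with the chaperone Serpinh1 in the endoplasmic reticulum, secreted, trimmed and crosslinked. Fibrillar collagens form the fibres of bone, skin, tendon and cartilage, whereas type IV collagen forms the sheet of basement membranes. Fibril-associated collagens decorate fibres, and transmembrane collagens stay anchored in the cell. In the early mouse embryo type IV collagen is laid down beneath epithelia and by the extraembryonic endoderm, while abundant type I collagen is a feature of mesenchyme and fibroblasts.

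The lines differed as follows. PRDM14_DNMT3B (line JP-23+3b-3) stably expressed both Prdm14 and Dnmt3b1 on a wild-type background, and PRDM14 (line JP-23) stably expressed Prdm14 alone. Dnmt3b_KO (line 8bb) was Dnmt3b-/-, Dnmt1_KO (line 36) was Dnmt1-/-, and TKO (line 19-1) lacked Dnmt1, Dnmt3a and Dnmt3b. J1 was wild type. J1, PRDM14, PRDM14_DNMT3B and Dnmt3b_KO had 2 arrays each, Dnmt1_KO and TKO had 1 each, and every group was a single line. All cells grew feeder-free with serum and leukaemia inhibitory factor in the medium. Nothing in the labels says that replicates came from separate cultures, so the p-values measure the spread between arrays, which may be technical. Single-array groups were assumed to vary like the rest.

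Signals were well above background for 50.03% to 56.03% of spots per array, and replicates correlated at 0.9951 to 0.9977 over the 18244 genes above background on all arrays. The knockouts matched their labels, with Dnmt1 at -2.67 in Dnmt1_KO and -3.15 in TKO, against 1.63 and 1.30 in J1. Dnmt3b stood at 1.63 and 1.70 in Dnmt3b_KO and 2.00 in TKO, against 7.61 and 7.57 in J1. The Prdm14 probe went the other way from the label, at -6.34 and -6.42 in the line labelled PRDM14_DNMT3B, where it was below background, and -4.31 and -4.02 in the line labelled PRDM14, against -0.07 and 0.09 in J1. The Dnmt3b probe also read lower in the line labelled PRDM14_DNMT3B, at 4.14 ± 0.05, than in the line labelled PRDM14, at 5.03 ± 0.04 (SD, n = 2 each), a difference of -0.89 (limma, adjusted p = 0.00191). The sources used here do not say whether either probe detects its transgene. Directions for PRDM14 and PRDM14_DNMT3B below therefore refer to the lines as labelled. J1 itself stood apart in Hprt, a purine salvage gene, at -2.34 and -2.25, against 5.81 to 6.57 on the other arrays. All 8 ES cell markers were well above background on every array. No other line shared a slide with the PRDM14 arrays, and for that line slide and group cannot be told apart.

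Levels below are log2 signals minus the 75th percentile of their array, so 0 means a signal at that percentile and a step of 1 means a factor of 2. Levels of different genes come from different probes and are not compared. Of the 41 genes, 12 were well above background on all 10 arrays: Col1a1, Col1a2, Col2a1, Col4a1, Col4a2, Col4a6, Col5a1, Col7a1, Col8a2, Col9a2, Col16a1 and Col18a1. A further 15 were above background throughout 1 or more groups and were also tested, of which Col4a4, Col5a2, Col14a1 and Col23a1 passed only through a group with 1 array. The other 14 were not tested. Col4a3, Col8a1, Col10a1, Col17a1, Col20a1, Col24a1, Col27a1 and Col28a1 were above background on no array, and Col6a6, Col9a3, Col11a1, Col13a1, Col15a1 and Col19a1 on 1 array each.

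**Figure D1:**
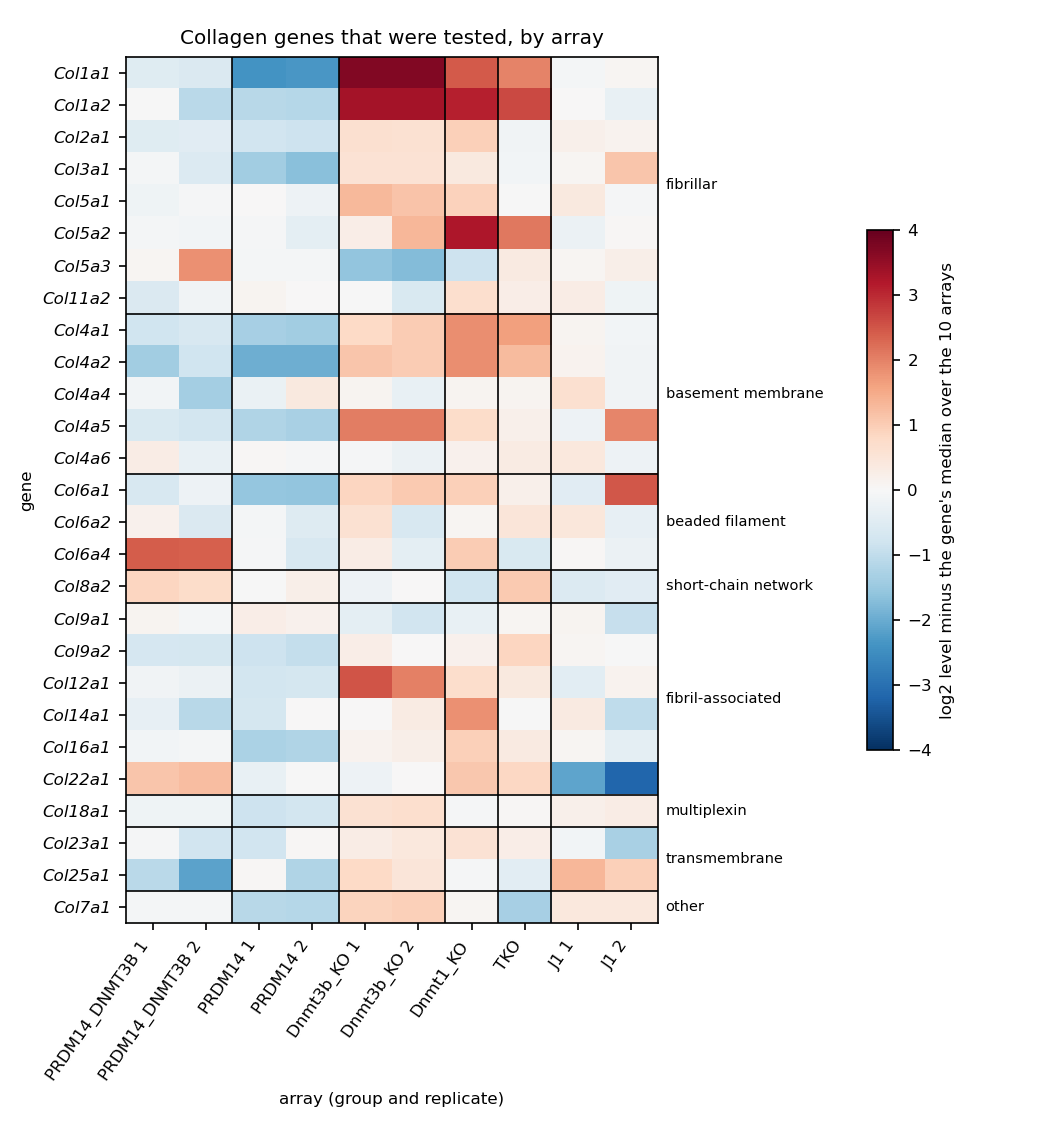
Levels of the 27 tested collagen genes (rows, grouped by collagen class) on the 10 arrays (columns), each as the log2 level minus that gene's median over the arrays. Col1a1, Col1a2, Col4a1 and Col4a2 are blue on both PRDM14 arrays and red on the Dnmt3b_KO, Dnmt1_KO and TKO arrays.

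Most collagen genes called in PRDM14 were lower than in J1, and most called in the methyltransferase knockouts were higher. A gene above background in part of the groups was tested through the group where it is high, so counts and medians over the 27 tested genes are descriptions. In PRDM14 against J1, 2 of the 27 tested genes rose and 11 fell, whereas 39.7% of all 23707 tested genes were called, 20.9% higher and 18.8% lower (limma, adjusted p under 0.05). The median difference was -0.565 for the 27 genes and -0.03 for all genes. In PRDM14_DNMT3B against J1, 3 rose and 8 fell, beside 39.3% of all genes called, 19.6% higher and 19.8% lower, with medians of -0.41 and -0.07. Of the 12 genes above background on all arrays, 1 rose and 8 fell in PRDM14, and 1 rose and 7 fell in PRDM14_DNMT3B, each against J1. A fit of only the 18244 genes above background on all arrays called 46.7% and 45.9% of them in either direction. That fit called 10 and 8 of the 12 collagen genes.

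The knockouts ran the other way. In Dnmt3b_KO against J1, 10 of 27 rose and 0 fell, beside 21% of all genes called, 10.8% higher and 10.2% lower, with a collagen median of 0.40 against -0.10 for all genes. In Dnmt1_KO against J1, 9 rose and 1 fell, beside 28.1% called, 13% higher and 15.1% lower, and the medians were 0.61 and -0.15. In TKO against J1, 8 rose and 1 fell, beside 28.5% called, 13.9% higher and 14.6% lower, and the medians were 0.34 and -0.07. The fit of only the 18244 genes above background on all arrays called 29.2%, 34.8% and 34.2% of them in Dnmt3b_KO, Dnmt1_KO and TKO. It called 9, 9 and 8 of the 12 collagen genes among them. In the main fit, of these 12, 8 rose and 0 fell in Dnmt3b_KO, 7 rose and 1 fell in Dnmt1_KO, and 6 rose and 1 fell in TKO. When either Dnmt3b_KO array was left out, fewer collagen genes were called in Dnmt3b_KO, all of them higher. The share of all genes called was smaller too. These 3 comparisons and those of the PRDM14 lines with J1 share the same J1 arrays.

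PRDM14_DNMT3B was set directly against PRDM14, a pair that differs in Dnmt3b1, as labelled, and also in slide. Slide and line cannot be told apart in this pair. There 10 of 27 collagen genes rose and 0 fell, beside 20.8% of all genes called, 9.88% higher and 10.9% lower, with medians of 0.57 and -0.02. That count was lower in each fit that left out 1 array of PRDM14 or PRDM14_DNMT3B, and so was the share of all genes called. PRDM14 was also set against Dnmt3b_KO, where 0 of 27 rose and 13 fell, beside 37.4% of all genes called, 21.6% higher and 15.8% lower, and the medians were -1.22 and 0.08. Of the 12 genes above background on all arrays, 8 rose and 0 fell in PRDM14_DNMT3B against PRDM14, and 0 rose and 10 fell in PRDM14 against Dnmt3b_KO. When only the 18244 genes above background on all arrays were fitted, 28% and 43.9% of them were called in either direction. Of the 12 collagen genes, 8 and 10 were called in that fit.

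**Figure D2:**
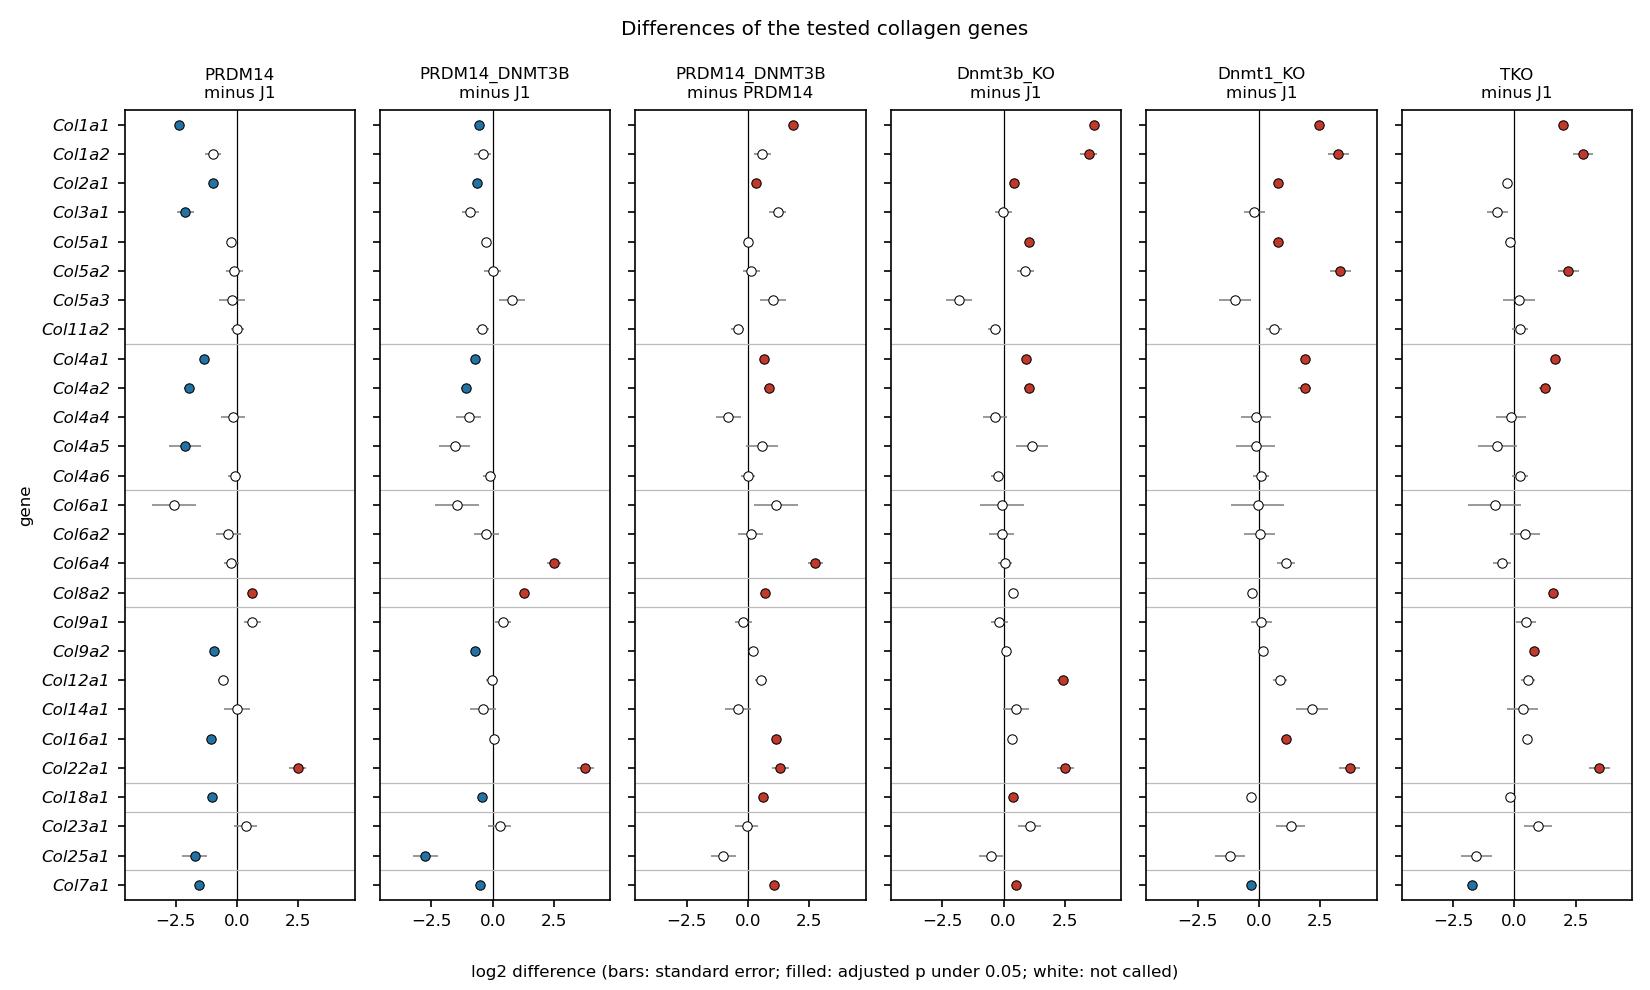
Log2 differences of the 27 tested collagen genes (rows) in 6 comparisons (panels), with standard errors from the limma fit as bars. Red and blue points passed the test as higher and lower, and white points did not; Col1a1 is blue in both comparisons of the PRDM14 lines with J1 and red in the 3 knockout comparisons. Where a gene was below background in a group, the point is the fitted difference, not a measured size.

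Among the 12 genes above background on every array, the group with the lowest mean was PRDM14 for 8 genes, whereas it was PRDM14 for 18.6% of 18244 genes above background on every array. Both PRDM14 arrays lay below the other 8 arrays for Col1a1, Col1a2, Col2a1, Col4a1, Col4a2, Col9a2, Col16a1 and Col18a1, a pattern seen in 10.5% of those genes. The highest mean was in Dnmt3b_KO for 5 of the 12, in Dnmt1_KO for 4 and in TKO for 3, beside 8.72%, 10% and 14.2% of all those genes. J1 was neither highest nor lowest for any of the 12, although it was highest for 25.8% and lowest for 11.6% of all those genes.

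Of 11 fibrillar collagen genes 8 were tested, of which 0 rose and 3 fell in PRDM14, while 4, 5 and 3 rose and 0 fell in Dnmt3b_KO, Dnmt1_KO and TKO, each against J1. In the same order, 39.7%, 21%, 28.1% and 28.5% of all genes were called in either direction. The pair that makes type I collagen rose in all 3 knockouts against J1. The Col1a1 probe (mm9 chromosome 11, 94813115 to 94813174), for the alpha 1 chain of type I collagen, read -2.46 and -2.56 in PRDM14_DNMT3B, -4.37 and -4.30 in PRDM14, 1.74 and 1.73 in Dnmt3b_KO, 0.50 in Dnmt1_KO and 0.02 in TKO, against -2.04 and -1.90 in J1. Replicates of a group lay close together, and no groups overlapped. Col1a1 fell in PRDM14 against J1 by 2.37 (SE 0.09, adjusted p = 4.12e-05), a 5.16-fold lower signal. It was 1.83 ± 0.09 higher in PRDM14_DNMT3B than in PRDM14 (adjusted p = 0.000652) and remained lower than in J1, by 0.54 (adjusted p = 0.00539). It was 13.1-fold higher in Dnmt3b_KO, 5.52-fold higher in Dnmt1_KO and 3.98-fold higher in TKO than in J1 (adjusted p = 0.000184, 0.000248 and 0.000382). Between PRDM14 and Dnmt3b_KO the signal differed 67.4-fold, lower in PRDM14 (adjusted p = 8.38e-06).

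Col1a2, the partner chain of type I collagen, read -1.92 and -2.99 in PRDM14_DNMT3B, -3.02 and -3.06 in PRDM14, 1.43 and 1.42 in Dnmt3b_KO, 1.20 in Dnmt1_KO and 0.75 in TKO, against -1.89 and -2.20 in J1. Its knockout arrays all lay above the other 6 arrays, while the first PRDM14_DNMT3B array lay among the J1 arrays and the second near PRDM14. Col1a2 rose in Dnmt3b_KO by 3.47 ± 0.34 (SE), in Dnmt1_KO by 3.24 ± 0.41 and in TKO by 2.80 ± 0.41 (adjusted p = 0.00245, 0.00427 and 0.00612). The difference in PRDM14 against J1 was -0.99 ± 0.34 and did not pass (adjusted p = 0.0634). Within slide 1 the Dnmt3b_KO difference was 3.32 and within slide 2 it was 3.62, and for Col1a1 these were 3.78 and 3.64.

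The promoter window of Col1a2 in RefSeq (GRCm38.p6, chr6:4505368-4505667, plus strand, 250 bases before to 50 after the start) is printed because Col1a2 rose in all 3 knockouts. Capitals mark each CG, the target of the DNA methyltransferases. It holds 13 CG, and the median of 32841 windows is 7.
Col1a2: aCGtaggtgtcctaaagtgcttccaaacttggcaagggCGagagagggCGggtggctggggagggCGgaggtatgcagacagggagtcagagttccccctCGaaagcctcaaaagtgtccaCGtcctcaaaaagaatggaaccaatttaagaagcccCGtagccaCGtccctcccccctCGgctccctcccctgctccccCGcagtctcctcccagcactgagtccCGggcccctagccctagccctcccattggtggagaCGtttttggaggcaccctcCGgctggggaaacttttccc
No Col1a1 window was in the table.

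Col2a1, the cartilage collagen, read -0.24 and -0.22 in PRDM14_DNMT3B, -0.51 and -0.58 in PRDM14, 0.88 and 0.84 in Dnmt3b_KO, 1.20 in Dnmt1_KO and 0.11 in TKO, against 0.46 and 0.38 in J1. It fell in PRDM14 by 0.97 ± 0.08 and in PRDM14_DNMT3B by 0.65 ± 0.08 (SE, adjusted p = 0.000396 and 0.00175), and no array of these lines overlapped J1. It was higher in Dnmt3b_KO by 0.44 and in Dnmt1_KO by 0.78 (adjusted p = 0.0155 and 0.00413), whereas the TKO difference of -0.31 did not pass. The Dnmt3b_KO call was lost without the second J1 array or without either Dnmt3b_KO array. The difference between PRDM14_DNMT3B and PRDM14, 0.32 (adjusted p = 0.0407), was lost in all 8 fits that left out 1 array.

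Col5a1, a type V chain that helps to start fibrils, read -1.11 and -0.99 in PRDM14_DNMT3B, -0.94 and -1.15 in PRDM14, 0.36 and 0.19 in Dnmt3b_KO, -0.02 in Dnmt1_KO and -0.96 in TKO, against -0.57 and -0.99 in J1. It rose in Dnmt3b_KO by 1.06 ± 0.17 and in Dnmt1_KO by 0.76 ± 0.20 (SE, adjusted p = 0.01 and 0.041). The PRDM14 and PRDM14_DNMT3B arrays overlapped those of J1, with differences of -0.27 and -0.27 that did not pass. The Dnmt3b_KO call was lost without the first Dnmt3b_KO array. The Dnmt1_KO call was lost without the second J1 array, where the difference was 0.55, and without any 1 array of the other replicated groups.

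Col5a2, a second type V chain, was above background in Dnmt1_KO and TKO alone, and it was tested only through these groups, where it is high. It read -3.00 in Dnmt1_KO and -4.13 in TKO, against -6.45 and -6.19 in J1, and was at least 2.2-fold higher in Dnmt1_KO (adjusted p = 0.00449). Folds written as at least set the group above background against the higher of its partner's own signal and the lowest signal above background on that array. For TKO the bound was 1.01-fold (adjusted p = 0.015), and that call was lost with normexp background correction and without the first J1 array.

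Col3a1, the collagen of distensible tissues such as vessels, read -3.51 and -3.99 in PRDM14_DNMT3B, -4.81 and -5.10 in PRDM14, -2.86 and -2.84 in Dnmt3b_KO, -3.03 in Dnmt1_KO and -3.55 in TKO, against -3.34 and -2.33 in J1. It was above background on neither PRDM14 array and on both J1 arrays, and PRDM14 was at least 3.35-fold lower (adjusted p = 0.0052). It was at least 3.31-fold lower in PRDM14 than in Dnmt3b_KO (adjusted p = 0.00591), a call lost with normexp correction. Unlike the type I chains, Col3a1 overlapped or lay below the J1 arrays in the knockouts, with differences of -0.02 in Dnmt3b_KO, -0.19 in Dnmt1_KO and -0.71 in TKO, none of which passed. The contrast with the type I chains was not itself tested.

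Col5a3 read -3.72 and -3.91 in Dnmt3b_KO, against -2.09 and -1.93 in J1, but 1 PRDM14_DNMT3B array stood at -0.33 and its replicate at -2.10. With that spread the Dnmt3b_KO difference of -1.80 ± 0.53 (SE) did not pass (adjusted p = 0.065). Col11a2, a cartilage chain, was above background on 4 arrays and passed in no comparison.

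**Figure D3:**
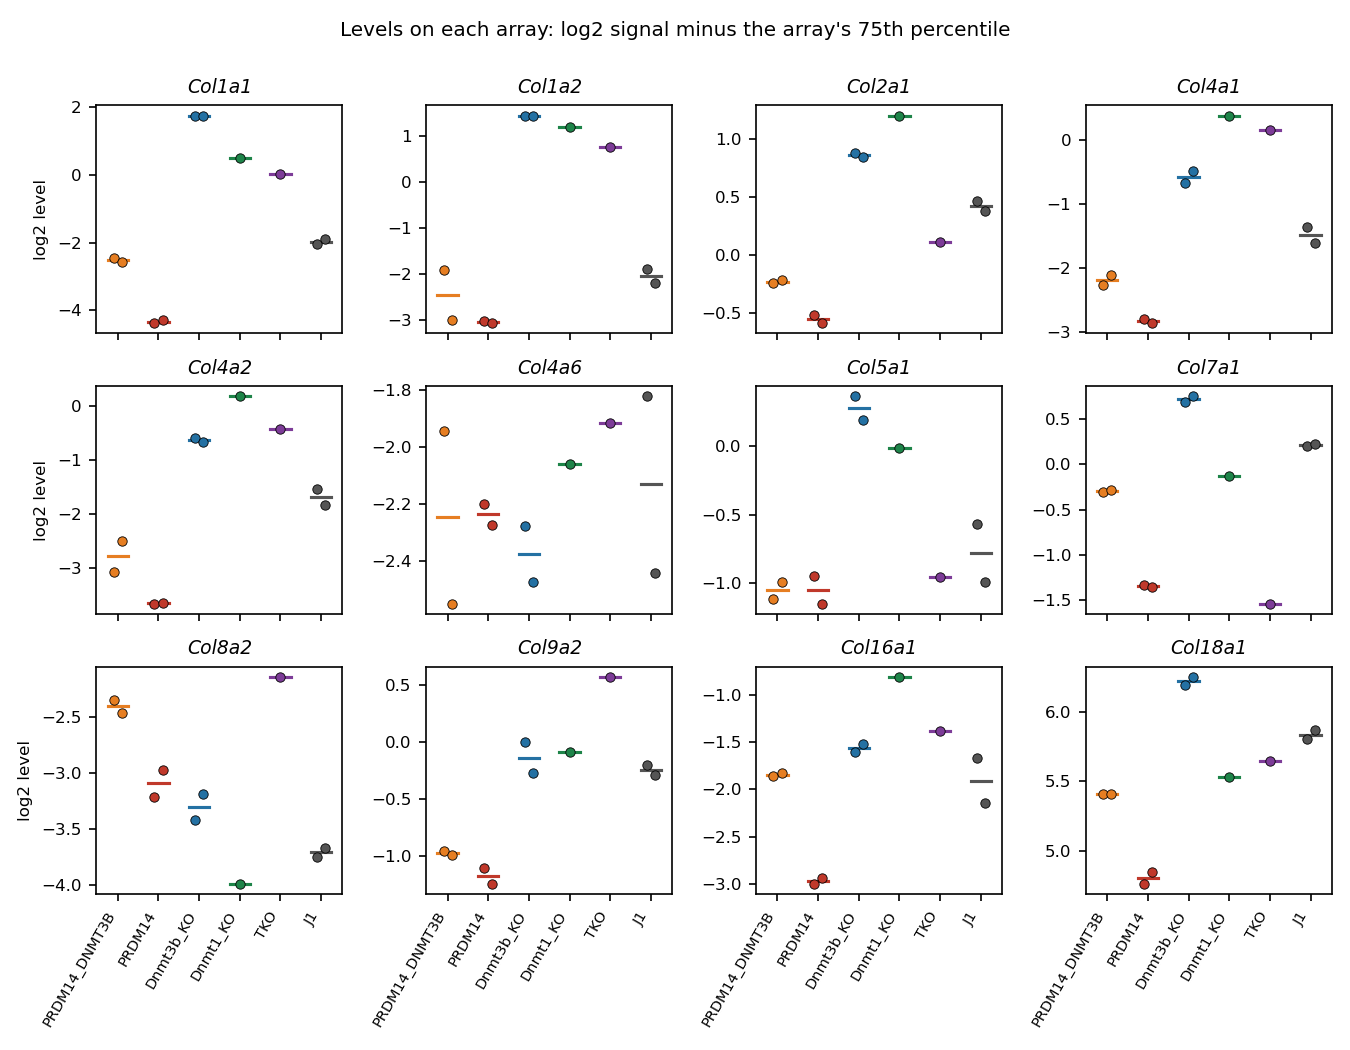
Levels, as log2 signal relative to the array's 75th percentile, of the 12 collagen genes above background on all arrays, by group, each panel with its own axis; points are arrays and lines are group means. The PRDM14 points are the lowest for 8 genes, and Col4a6 shows groups that overlap.

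The basement membrane collagens split by chain. Of 6 genes 5 were tested, of which 0 rose and 3 fell in PRDM14, and 2 rose and 0 fell in each of Dnmt3b_KO, Dnmt1_KO and TKO, against J1. These stand beside 39.7%, 21%, 28.1% and 28.5% of all genes called in either direction. Col4a1 and Col4a2 encode the chains of the type IV collagen found in nearly all basement membranes, and they moved together. The Col4a1 probe (mm9 chromosome 8, 11199009 to 11199068) was spotted 10 times and read -2.27 and -2.12 in PRDM14_DNMT3B, -2.80 and -2.87 in PRDM14, -0.67 and -0.48 in Dnmt3b_KO, 0.38 in Dnmt1_KO and 0.15 in TKO, against -1.36 and -1.61 in J1. Col4a2 (mm9 chromosome 8, 11448840 to 11448899) read -3.08 and -2.49 in PRDM14_DNMT3B, -3.66 and -3.65 in PRDM14, -0.59 and -0.68 in Dnmt3b_KO, 0.17 in Dnmt1_KO and -0.43 in TKO, against -1.55 and -1.83 in J1. For both genes every knockout array lay above J1, and every array of the PRDM14 and PRDM14_DNMT3B lines lay below J1.

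In PRDM14 against J1, Col4a1 fell by 1.35 ± 0.13 and Col4a2 by 1.97 ± 0.21 (SE, adjusted p = 0.000654 and 0.00097). In PRDM14_DNMT3B against J1 they fell by 0.71 and 1.10 (adjusted p = 0.00711 and 0.00872). Both rose against J1 in Dnmt3b_KO, by 0.91 and 1.05, in Dnmt1_KO, by 1.87 and 1.86, and in TKO, by 1.64 and 1.25 (adjusted p between 0.00121 and 0.02). The genes lie on chromosome 8, whose 1287 tested genes had a median difference of 0.40 in PRDM14 against J1 and 0.15 in TKO against J1.

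PRDM14_DNMT3B exceeded PRDM14 by 0.64 for Col4a1 and 0.87 for Col4a2 (adjusted p = 0.0214 and 0.0362). The Col4a1 call was lost with normexp background correction and without any 1 of the 4 arrays of these lines. The Col4a2 call was lost with quantile normalization, with the slide as a random block, and without either PRDM14 array, the second PRDM14_DNMT3B array or either Dnmt3b_KO array. The Col4a2 rise in Dnmt3b_KO was lost without the second J1 array or without either Dnmt3b_KO array, and its rise in TKO without the second J1 array.

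Col4a1 and Col4a2 are transcribed in opposite directions from neighbouring starts, and their RefSeq promoter windows (GRCm38.p6) share 78 bases. The windows are chr8:11312777-11313076, minus strand, and chr8:11312555-11312854, plus strand. They are printed because the pair moved together, each 5′ to 3′ on its own strand, with CG in capitals.
Col4a1: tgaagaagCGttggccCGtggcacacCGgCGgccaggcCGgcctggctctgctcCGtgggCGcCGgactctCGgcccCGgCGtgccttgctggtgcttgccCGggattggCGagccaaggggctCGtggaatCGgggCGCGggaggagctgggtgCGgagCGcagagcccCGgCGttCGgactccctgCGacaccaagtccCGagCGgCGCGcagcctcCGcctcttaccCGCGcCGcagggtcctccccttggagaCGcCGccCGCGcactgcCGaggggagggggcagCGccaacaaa
Col4a2: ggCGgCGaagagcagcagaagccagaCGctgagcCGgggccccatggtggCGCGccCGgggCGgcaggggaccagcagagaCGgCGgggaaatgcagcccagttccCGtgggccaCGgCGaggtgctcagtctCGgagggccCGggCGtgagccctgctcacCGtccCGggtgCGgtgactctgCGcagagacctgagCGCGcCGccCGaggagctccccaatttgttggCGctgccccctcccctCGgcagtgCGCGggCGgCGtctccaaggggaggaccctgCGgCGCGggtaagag
The Col4a1 window holds 37 CG and the Col4a2 window 33, which are at the percentiles 94.42 and 91.44 of all windows. The letters GGGCGG, a GC box, occur on either strand 1 time in the Col4a1 window and 3 times in the Col4a2 window, and in 35.67% of all windows. CCAAT occurs 1 time in each, and in 37.42% of all windows, and TATAAA in neither.

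The other type IV chains are made in fewer tissues, such as kidney and skin. Col4a6 read -1.95 and -2.55 in PRDM14_DNMT3B, -2.20 and -2.27 in PRDM14, -2.28 and -2.47 in Dnmt3b_KO, -2.06 in Dnmt1_KO and -1.92 in TKO, against -1.82 and -2.44 in J1. Its groups overlapped, no comparison passed, and its 7 differences lay between -0.24 and 0.22. Col4a5 was above background, and so tested, only through Dnmt3b_KO, at -3.30 and -3.31, against -5.55 and -3.39 in J1. It was at least 2.42-fold lower in PRDM14 than in Dnmt3b_KO (adjusted p = 0.0109), a call lost without either PRDM14 array. The lower call in PRDM14 against J1 (adjusted p = 0.045) set groups that were both below background against each other, and it was lost in 11 of 15 alternatives, the replicate block among them. Col4a4 passed in no comparison, and Col4a3 was above background on no array.

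Of the fibril-associated collagens, Col16a1 and Col9a2 fell in PRDM14, Col12a1 rose in Dnmt3b_KO and Col22a1 rose in every line, each against J1. Col16a1 read -1.86 and -1.82 in PRDM14_DNMT3B, -3.00 and -2.94 in PRDM14, -1.60 and -1.51 in Dnmt3b_KO, -0.81 in Dnmt1_KO and -1.38 in TKO, against -1.67 and -2.15 in J1. It fell in PRDM14 against J1 by 1.06 ± 0.16 (SE, adjusted p = 0.00397) and was 1.13 ± 0.16 higher in PRDM14_DNMT3B than in PRDM14 (adjusted p = 0.00788), a call lost without the first PRDM14 array. PRDM14_DNMT3B lay within the range of J1, with a difference of 0.07 (adjusted p = 0.798). Dnmt1_KO was higher than J1 by 1.10 (adjusted p = 0.0129).

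Col9a2, a cartilage chain, read -0.95 and -0.99 in PRDM14_DNMT3B, -1.10 and -1.24 in PRDM14, 0.00 and -0.27 in Dnmt3b_KO, -0.09 in Dnmt1_KO and 0.57 in TKO, against -0.20 and -0.28 in J1. Both lines labelled as expressing Prdm14 lay below J1, by 0.93 in PRDM14 and 0.73 in PRDM14_DNMT3B (adjusted p = 0.002 and 0.00504), and the difference between the lines was not called (PRDM14_DNMT3B minus PRDM14 0.20, adjusted p = 0.284). TKO was higher than J1 by 0.81 (adjusted p = 0.0114), and Dnmt3b_KO overlapped J1.

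Col12a1, which binds fibres in tendon and other dense tissue, was above background, and so tested, only through Dnmt3b_KO, at -3.31 and -3.83, against -6.55 and -6.54 in PRDM14 and -6.26 and -5.70 in J1. Dnmt3b_KO was at least 1.49-fold higher than J1 (adjusted p = 0.0026), and PRDM14 was at least 2.02-fold lower than Dnmt3b_KO (adjusted p = 0.000424). With normexp correction, which compresses dim signals, both calls were lost and the differences were 0.17 and -0.24. Another probe annotated as collagen XII, listed under a transcript identifier, was above background on no array and was not tested. It read -5.98 and -6.48 in Dnmt3b_KO and -6.66 and -6.73 in PRDM14, against -5.71 and -5.91 in J1. The rise in Dnmt3b_KO was therefore not repeated on that probe.

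Col22a1, a collagen of tissue junctions such as those of muscle and tendon, parted J1 from all other lines. It read -1.67 and -1.54 in PRDM14_DNMT3B, -3.07 and -2.78 in PRDM14, -2.98 and -2.75 in Dnmt3b_KO, -1.69 in Dnmt1_KO and -1.92 in TKO, against -4.86 and -5.93 in J1. J1 was not well above background, and against it Col22a1 was at least 5.81-fold higher in PRDM14_DNMT3B, 2.32-fold in PRDM14, 2.42-fold in Dnmt3b_KO, 5.46-fold in Dnmt1_KO and 4.65-fold in TKO (adjusted p between 0.000588 and 0.00645). The higher call of PRDM14_DNMT3B over PRDM14 (adjusted p = 0.0464) was lost in 11 of 15 alternatives, the replicate block among them.

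A second probe annotated as collagen XXII alpha 1, listed under a transcript identifier and so outside the 41 genes, was above background on all arrays. It read -0.33 and -0.36 in PRDM14_DNMT3B, -0.99 and -1.11 in PRDM14, -1.70 and -1.92 in Dnmt3b_KO, -1.68 in Dnmt1_KO and -1.00 in TKO, against -1.84 and -2.26 in J1. It was higher than J1 in PRDM14_DNMT3B by 1.70, in PRDM14 by 1.00 and in TKO by 1.05 (limma, adjusted p = 0.000701, 0.00508 and 0.0136). In Dnmt3b_KO and Dnmt1_KO its differences of 0.23 and 0.37 did not pass, so the probes disagree there.

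Col9a1 and Col14a1 passed in no comparison. The nearest was Col14a1 in Dnmt1_KO, at -2.58, against -4.05 and -5.42 in J1, a difference of 2.16 ± 0.64 (SE, adjusted p = 0.056). A second Col14a1 probe was above background only in Dnmt1_KO, at -3.70, and TKO, at -3.61, against -5.84 and -5.97 in J1. It was not tested on its own. In TKO the kept probe read -4.40 and lay between its J1 arrays, so the probes differ there.

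Col7a1, which forms the anchoring fibrils beneath the epidermis, read -0.30 and -0.29 in PRDM14_DNMT3B, -1.33 and -1.35 in PRDM14, 0.69 and 0.75 in Dnmt3b_KO, -0.13 in Dnmt1_KO and -1.53 in TKO, against 0.21 and 0.22 in J1. It fell in PRDM14 against J1 by 1.56 ± 0.07 and in TKO by 1.75 ± 0.09 (SE, adjusted p = 7.57e-05 and 0.00035), and it was the 1 collagen gene called lower than J1 in TKO, where the alternatives called 1 to 4 lower. It was 1.05 ± 0.07 higher in PRDM14_DNMT3B than in PRDM14 (adjusted p = 0.00104). Dnmt3b_KO was 0.50 above J1 (adjusted p = 0.00836), a call lost without the second Dnmt3b_KO array. The Dnmt1_KO difference of -0.35 (adjusted p = 0.0393) was lost in all 8 fits that left out 1 array.

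Col18a1, the basement membrane collagen from which endostatin is cut, read 5.41 and 5.41 in PRDM14_DNMT3B, 4.76 and 4.85 in PRDM14, 6.19 and 6.25 in Dnmt3b_KO, 5.53 in Dnmt1_KO and 5.65 in TKO, against 5.80 and 5.87 in J1. On this probe PRDM14 was 2.04-fold lower than J1 and PRDM14_DNMT3B 1.34-fold lower (adjusted p = 0.000341 and 0.00883), and PRDM14_DNMT3B was 1.52-fold higher than PRDM14 (adjusted p = 0.00637). The other Col18a1 probe read 5.01 and 5.09 in PRDM14_DNMT3B and 4.58 and 4.56 in PRDM14, against 4.65 and 4.71 in J1. It therefore placed PRDM14_DNMT3B above J1 and not below. It also placed PRDM14 only slightly below J1, with means of 4.57 and 4.68, against 4.81 and 5.83 on the main probe. With the mean over the probes of a gene the PRDM14_DNMT3B difference from J1 was -0.03 and did not pass. Both probes were highest in Dnmt3b_KO, but the main probe's rise of 0.39 over J1 (adjusted p = 0.0241) was lost without any 1 of the 4 arrays of those groups.

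Col8a2, a short-chain collagen of the corneal basement membrane, went against the majority. It read -2.35 and -2.47 in PRDM14_DNMT3B, -3.21 and -2.97 in PRDM14, -3.42 and -3.19 in Dnmt3b_KO, -3.99 in Dnmt1_KO and -2.15 in TKO, against -3.75 and -3.67 in J1. It was higher than J1 in PRDM14_DNMT3B by 1.30 ± 0.13, in TKO by 1.56 ± 0.16 and in PRDM14 by 0.62 ± 0.13 (SE, adjusted p = 0.000784, 0.00183 and 0.0126). The PRDM14 call was lost with normexp correction, without the first J1 array and without the second PRDM14 array. PRDM14_DNMT3B was 0.69 above PRDM14 (adjusted p = 0.0177), a call lost with normexp correction and without the first PRDM14 array or either PRDM14_DNMT3B array.

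Of the type VI chains, which form beaded filaments, Col6a4 was above background on both PRDM14_DNMT3B arrays, at -2.60 and -2.61, and otherwise only in Dnmt1_KO, at -4.02. It stood at -5.05 and -5.66 in PRDM14 and -4.98 and -5.27 in J1. PRDM14_DNMT3B was at least 2.89-fold higher than J1 and at least 3.93-fold higher than PRDM14 (adjusted p = 0.00146 and 0.00316). Col6a4 was tested only through PRDM14_DNMT3B and Dnmt1_KO, where it is high. Its other probe was above background on no array, at -6.07 and -6.27 in PRDM14_DNMT3B, against -6.42 and -6.06 in J1. Col6a1 and Col6a2 passed in no comparison. For Col6a1 the J1 arrays read -3.66 and -0.70, and PRDM14, below background at -4.74 and -4.78, was not called lower (bound at least 5.3-fold, adjusted p = 0.0672).

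The same J1 array, the second, was the only array with Col15a1 above background, at -1.82, against -6.27 on its replicate and -6.70 to -5.95 on the other 8 arrays. The other Col15a1 probes were above background on no array and read -5.81 and -6.05 on that J1 array. The first of them overlaps the kept probe in position, so the high reading was not repeated there. Single arrays also stood apart for Col9a3, at -3.08 on the second PRDM14_DNMT3B array and -6.03 on the first, and for Col13a1, at -3.36 on the first PRDM14 array and -5.10 on the second. None of these 3 genes was tested.

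Among the transmembrane collagens, Col25a1, a neuronal collagen, was above background on both J1 and both Dnmt3b_KO arrays and on 1 PRDM14 array. It read -5.19 and -6.24 in PRDM14_DNMT3B, -4.07 and -5.32 in PRDM14, -3.32 and -3.63 in Dnmt3b_KO, -4.15 in Dnmt1_KO and -4.52 in TKO, against -2.79 and -3.14 in J1. PRDM14_DNMT3B was at least 2.16-fold lower than J1 (adjusted p = 0.00802). The PRDM14 difference was -1.73 ± 0.51 (SE, adjusted p = 0.0405), and without the second PRDM14 array, or without 1 array of J1 or Dnmt3b_KO, it was not called. Col23a1 passed in no comparison.

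The genes that fold and process collagen were counted from lists of their own. Of 8 folding and export genes, 0 rose and 3 fell in PRDM14 against J1, beside 39.7% of all genes called in either direction, and 4 rose and 0 fell in PRDM14_DNMT3B against PRDM14, beside 20.8%. Serpinh1, the collagen-specific chaperone, read 0.80 and 0.79 in PRDM14_DNMT3B, 0.04 and 0.19 in PRDM14, 2.74 and 2.74 in Dnmt3b_KO, 3.57 in Dnmt1_KO and 2.76 in TKO, against 2.20 and 2.03 in J1. Its arrays ordered the groups much as those of Col4a1 did, with PRDM14 lowest and Dnmt1_KO highest. It fell in PRDM14 against J1 by 2.00 (adjusted p = 8.04e-05) and was 0.68 higher in PRDM14_DNMT3B than in PRDM14 (adjusted p = 0.00788). Against J1 it rose by 0.63 in Dnmt3b_KO and 1.46 in Dnmt1_KO (adjusted p = 0.00966 and 0.00116). Of 14 tested prolyl and lysyl modification genes, 4 rose and 5 fell in PRDM14 against J1, which is no common direction.

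Of 12 tested genes for procollagen trimming and crosslinking, 1 rose and 5 fell in PRDM14 against J1, and 5 rose and 1 fell in Dnmt3b_KO against J1. These stand beside 39.7% and 21% of all genes called in either direction. Pxdn, the peroxidase that crosslinks type IV collagen, fell by 2.44 in PRDM14 (adjusted p = 0.000128), and Loxl4, a lysyl oxidase, was at least 3.24-fold lower there (adjusted p = 0.00128). Lox, the lysyl oxidase that crosslinks fibres, was above background only in the knockouts, at -3.07 and -3.12 in Dnmt3b_KO, -3.72 in Dnmt1_KO and -3.55 in TKO, against -6.55 and -6.01 in J1. It was at least 2.07-fold, 1.34-fold and 1.51-fold higher there (adjusted p = 0.000786, 0.00132 and 0.000998). Lox was tested only through the knockouts, where it is high.

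Of 8 tested collagen receptors, 3 rose and 2 fell in PRDM14 against J1, beside 39.7% of all genes called in either direction. Ddr1, a collagen receptor kinase of epithelia, fell by 2.71, while Ddr2, its mesenchymal relative, was at least 3.22-fold higher (adjusted p = 4.36e-05 and 0.00494). Ddr2 was tested only through PRDM14, where it is high. Itga11, a fibrillar collagen integrin, was above background on the 4 knockout arrays alone, and it was tested only through these, where it is high. Itga11 was at least 3.3-fold higher than J1 in Dnmt3b_KO, 3.07-fold in Dnmt1_KO and 1.68-fold in TKO (adjusted p = 0.00386, 0.00644 and 0.0171). Of 8 tested genes for collagen degradation and its inhibitors, 6 rose and 0 fell in both Dnmt3b_KO and Dnmt1_KO against J1. The shares of all genes called in these 2 comparisons were 21% and 28.1%. Mmp14, a membrane collagenase, rose by 1.72 in Dnmt3b_KO, and the inhibitor Timp3 by 1.59 (adjusted p = 0.00117 and 0.00237).

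Basement membrane partners of type IV collagen were mixed. Of 15 such genes, 4 rose and 7 fell in PRDM14 against J1, beside 39.7% of all genes called in either direction. Lamb3, a laminin chain of epithelia, was down by 2.48 there (adjusted p = 0.00142). In PRDM14_DNMT3B against PRDM14, 9 rose and 0 fell, beside the 9.88% of all genes that rose. In Dnmt1_KO against J1, where both type IV chains rose, 2 rose and 1 fell, beside 28.1% of all genes called. Of 9 tested TGF-beta and fibrosis regulators, 1 rose and 3 fell in PRDM14, and 4 rose and 0 fell in Dnmt3b_KO, each against J1. Beside them, 39.7% and 21% of all genes were called. The ligand Tgfb2 was 8.94-fold lower in PRDM14 and 2.96-fold higher in Dnmt3b_KO than in J1 (adjusted p = 4.71e-05 and 0.00159).

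**Figure D4:**
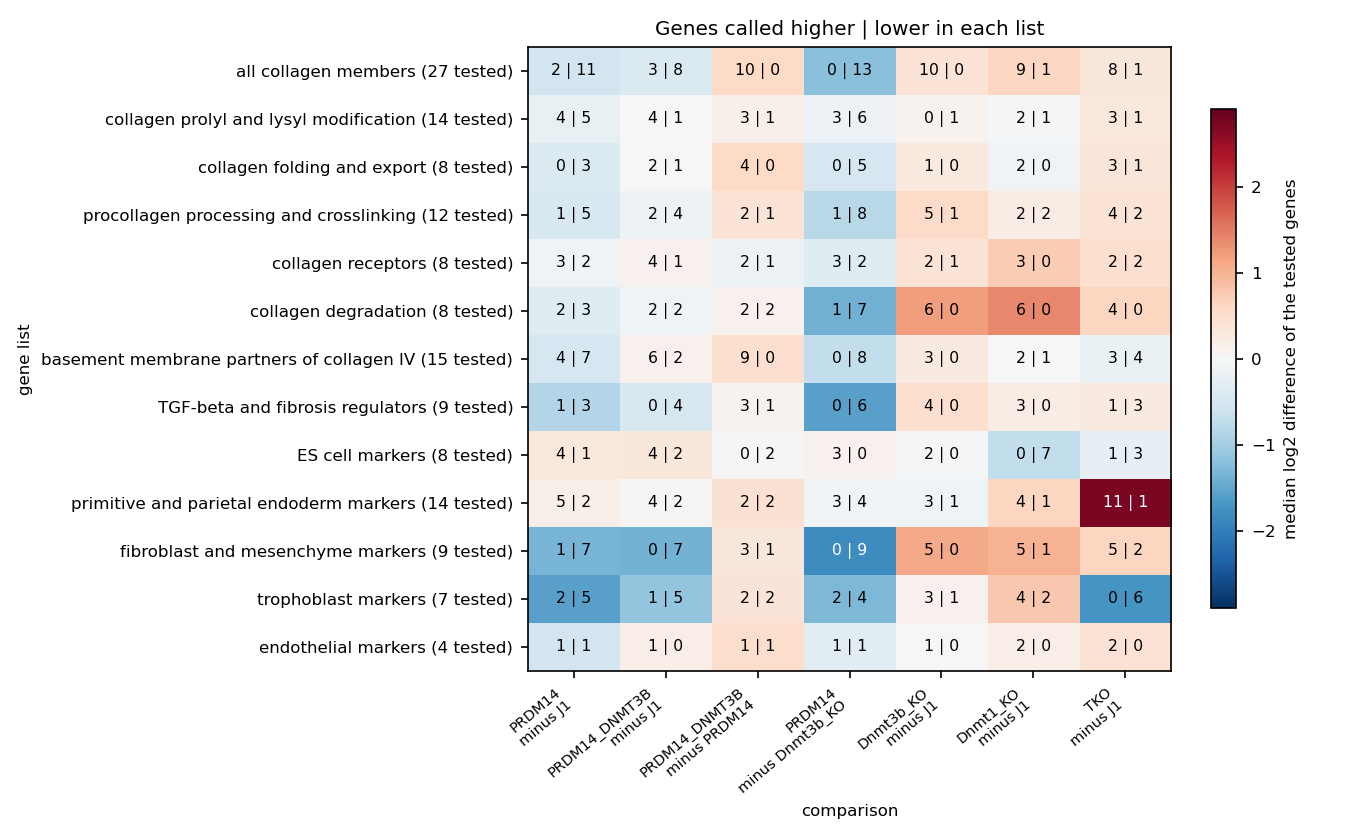
Counts of genes called higher and lower (the 2 numbers in each cell) and median log2 difference (colour) for the collagen genes and 12 lists (rows) in 7 comparisons (columns). The collagen row is blue in both comparisons of the PRDM14 lines with J1 and red in the 3 knockout comparisons. The rows for procollagen processing, collagen degradation, TGF-beta regulators, and fibroblast and mesenchyme markers have medians of the same signs there.

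Markers of other cells were counted in the same comparisons. Of 13 fibroblast and mesenchyme markers, 9 were tested. Of these, 1 rose and 7 fell in PRDM14, 0 rose and 7 fell in PRDM14_DNMT3B, 5 rose and 0 fell in Dnmt3b_KO, 5 rose and 1 fell in Dnmt1_KO, and 5 rose and 2 fell in TKO, each against J1. These stand beside 39.7%, 39.3%, 21%, 28.1% and 28.5% of all genes called in either direction. In PRDM14_DNMT3B against PRDM14, 3 rose and 1 fell, beside 20.8% of all genes called in either direction. Their summed signal, in multiples of the array's 75th percentile, was 8.62 and 8.77 in PRDM14_DNMT3B, 13.3 and 14.3 in PRDM14, 175.3 and 157.3 in Dnmt3b_KO, 173.2 in Dnmt1_KO and 42.1 in TKO, against 72.96 and 71.29 in J1. The sum, in which bright markers weigh most, was lower in TKO than in J1 and lower in PRDM14_DNMT3B than in PRDM14. The median marker difference was 0.62 in TKO against J1 and 0.33 in PRDM14_DNMT3B against PRDM14. Most called markers and most called collagen genes were higher in both comparisons. Of the defining members, Fap, Lum and Postn were above background on no array. Dcn, a matrix proteoglycan, was above background on the J1 and knockout arrays, at least 11.2-fold lower in PRDM14 (adjusted p = 0.0006). Tagln, a smooth muscle protein, fell in PRDM14 by 3.29, and Twist2, a mesenchymal transcription factor, was at least 1.84-fold lower (adjusted p = 2.74e-05 and 4.46e-05). Acta2, a smooth muscle actin of the same list, went the other way, at 2.42 and 2.52 in PRDM14, against 1.02 and 1.01 in J1. It read -0.32 and -0.39 in PRDM14_DNMT3B. The part of these cells or states in the collagen differences was not tested. In bulk RNA, fewer cells of a type and less RNA per cell cannot be told apart.

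Primitive and parietal endoderm markers rose in TKO, 11 of 14 against 1 that fell, with a median difference of 2.74, and in Dnmt1_KO 4 rose and 1 fell, whereas in Dnmt3b_KO 3 rose and 1 fell. Their summed signal was 13.6 in Dnmt1_KO and 13.1 in TKO, against 11.3 and 12.2 in J1. Trophoblast markers fell in PRDM14, 5 of 7 against 2 that rose, and their summed signal was 37.7 and 39.1 in PRDM14, against 154.0 and 144.9 in J1. It was 242.3 and 227.7 in Dnmt3b_KO, 265.5 in Dnmt1_KO and 57.1 in TKO. In TKO, 0 rose and 6 fell, with a median difference of -1.70. ES cell markers fell in Dnmt1_KO, 7 of 8 with 0 rising. In PRDM14, 4 rose and 1 fell. Of 4 tested endothelial markers, 1 rose and 1 fell in PRDM14 and 2 rose and 0 fell in Dnmt1_KO and in TKO. The part of any of these in the collagen differences was not tested. Against J1, 39.7% of all genes were called in PRDM14, 21% in Dnmt3b_KO, 28.1% in Dnmt1_KO and 28.5% in TKO.

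The RefSeq promoter table held 36 windows for 33 of the 41 collagen genes, 21 of them tested. An observed over expected CG ratio of at least 0.6 was found in 11 of the 36 windows and in 35.81% of all 32841 windows. Of the 11 windows of genes above background on all arrays, 4 reached it: Col4a1 at 0.90, Col4a2 at 0.82, Col8a2 at 0.83 and Col5a1 at 0.81. The Col3a1 window had 0 CG. No test was made of CG content against the differences.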

How the data were processed

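Gene expression was measured on 10 one-colour arrays (Cy3). The deposited scanner files hold spot intensities from Agilent Feature Extraction 10.7.3.1, background-subtracted and detrended within each array by the authors, per the file headers. The authors' deposited value table holds log2 values whose columns all have the median 4.243. Set against the scanner signals these values ran the same way (r = 0.9993 to 0.9998 over probes); their added constant is not stated.

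For the report, log2 of the processed signal minus the array's 75th percentile was used. Spots flagged as outliers were dropped and spots of a probe averaged. The brightest probe of a gene was kept, and the 23707 genes that were well above background throughout 1 or more groups were tested with limma 3.58.1 in R 4.3.3 over all 10 arrays and 6 groups, with Benjamini-Hochberg adjustment and a threshold of 0.05 (4 residual and 1.733 prior degrees of freedom). The fit was tested on simulated data. Each "at least" fold uses the lowest signal well above background per array, and the p-value beside it belongs to the fitted difference. The number of arrays limits the precision. Gene names other than collagens were updated through RefSeq accessions (GRCm38.p6, 26582 probes matched, 2891 symbols changed). Probe positions are on mm9, per the file headers.

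Collagen genes, gene lists and tests were chosen with earlier results of these data known. Values on every array are given for collagen genes above background on all arrays and, per comparison, for up to 6 called collagen genes with the largest difference in each direction; of the 12 other lists, up to 3 called genes per list, comparison and direction are named (1 gene that the rule names is not reported here). Deviations of same-numbered replicates correlated at 0.26 to 0.507 in all 6 pairs of groups; these numbers coincide with shared slides for J1, PRDM14_DNMT3B and Dnmt3b_KO. Alternatives changed the background correction, normalization, filter, probe choice, slide, replicate block and the arrays used.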

Additional observations from a re-analysis of the deposited data

How the results depend on the processing

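Alternatives were recomputed for the 76 called collagen differences and for 26 uncalled ones of genes above background on all arrays. No called difference changed sign. Their calls were kept in 558 checks and lost in 32 under alternatives that kept all arrays, and kept in 537 and lost in 71 when 1 array was left out. Of the 26 uncalled differences, 11 changed sign when some array was left out and 6 under the other alternatives, and a call was gained in 6 and 11 checks. The count of collagen genes called ranged under these omissions from 10 to 14 in PRDM14 against J1, 11 to 15 in PRDM14_DNMT3B against J1, 6 to 11 in Dnmt3b_KO against J1, 8 to 12 in Dnmt1_KO against J1, 8 to 13 in TKO against J1, 4 to 12 in PRDM14_DNMT3B against PRDM14 and 12 to 15 in PRDM14 against Dnmt3b_KO. Each omission also lowered the share of all genes called, in every comparison. Without the filter on dim probes, PRDM14_DNMT3B against PRDM14 gave 6 calls, all higher, in place of 10. Over all genes this setting called 8.23% in place of 20.8%. The replicate block gave 13, 11, 10, 13, 11, 9 and 14 calls in the same order of comparisons. Beside them it called 48%, 46.4%, 30.2%, 37.4%, 34.7%, 29.5% and 45.5% of all genes. It ended the calls of Col4a5 in PRDM14 against J1 and of Col22a1 in PRDM14_DNMT3B against PRDM14. The share of all genes called in Dnmt3b_KO against J1 was 21%, but 35.9% with the slide as a random block and 8.21% with no filter. Normexp correction with an offset of 50 shrank differences of dim genes such as Col12a1. Dim genes are limited by signal over background, and single-array groups have no replicate of their own.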

Other observations

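Collagen genes under other names were read for description. Emid2, whose current symbol is Col26a1, stood at -0.58 and -6.06 on the PRDM14_DNMT3B arrays, -6.57 and -6.66 on the PRDM14 arrays, -3.08 and -2.50 on the Dnmt3b_KO arrays, -1.64 in Dnmt1_KO and -2.99 in TKO, against -2.30 and -2.47 in J1. The PRDM14_DNMT3B replicates were thus far apart, and PRDM14 was not called different from J1 (limma, adjusted p = 0.092). A probe annotated as collagen VI alpha 3 was above background on 1 of 10 arrays, Dnmt1_KO, at -3.02, against -6.31 and -5.93 in J1.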
